A study of Mus musculus with 12 samples.

Results

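The complement components *C1qa*, *C1qb*, *C1qc*, *C1s1*, *C3*, *C4b*, *Cfb*, *C3ar1* and *C5ar1* were examined in bulk RNA-seq of Pdgfra+ (Cd140a+) cells sorted from mouse lung. They were chosen by gene name and are 9 of the 40760 genes of the deposited count table, and all 9 passed the filter on low counts that kept 17418 genes. The 12 libraries formed 4 groups of 3, from WT and Pear1-/- mice given vehicle (WT vehicle, Pear1-/- vehicle) or bleo (WT bleo, Pear1-/- bleo), where bleo is bleomycin, a drug that injures the lung and is followed by fibrosis in mice. All mice were young adult males on the C57BL/6 background, and bleo was given as an aerosol into the trachea. The Pear1-/- allele was a knockout-first allele, in which an inserted cassette traps and truncates the transcript in every cell type. The dose and time for these libraries and the number of mice behind each were not given in the sources used here, so the p-values measure the spread between libraries, which may be technical.

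Complement is a set of proteins, mostly secreted, that mark particles and damaged cells for clearance. C1q, built from the products of *C1qa*, *C1qb* and *C1qc*, recognises antibody and altered surfaces and acts with the proteases C1r and C1s, which cleave C4 and C2 to form an enzyme that cleaves C3, while factor B takes part in the amplifying alternative pathway. The fragments C3a and C5a act on cells through the receptors encoded by *C3ar1* and *C5ar1*. In lung, C1q is made largely by macrophages, and C3, C4 and C1s are made by fibroblasts among other cells.

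Several facts about the libraries bear on all values. Between 6702948 and 10447101 reads were counted per library, so that a floor of 3 counts lay between 0.287 and 0.448 CPM (counts scaled to the total of the library), a floor that covers counting error only. WT vehicle replicate 2 stood apart from its group. Divided by its degrees of freedom, the chi-square between the counts of a pair of libraries is near 1 if they differ by counting noise. It was 24.5 and 25.6 for this library against WT vehicle replicates 1 and 3 but between 1.80 and 2.82 against the libraries labelled Pear1-/- vehicle. Among the latter, replicate 3 had 4.62 and 5.18 against replicates 1 and 2, which had 1.48 against each other. WT vehicle replicates 1 and 3 had 1.71, and pairs within each bleo group had between 1.36 and 1.49. Most p-values thus rest on a spread near counting noise, and whether it holds the spread between mice was not tested. The labels were kept, and values without WT vehicle replicate 2 are given for the 9 genes where they bear on a call and for the counts of the further complement lists. Normalized counts (deposited counts divided by the size factor of the library, mean ± SD, n = 3) of *Pear1* itself were 547 ± 28.8 with vehicle in WT and 519.7 ± 24.0 with vehicle in libraries labelled Pear1-/- (log2 fold change -0.08, adjusted p = 0.49), and in bleo it was higher in the libraries labelled Pear1-/- (log2 fold change 0.48, adjusted p = 7.54e-05). These counts are summed over the whole gene, with exons that lie before the cassette included. Single exons were not examined, so *Pear1* gave no check of the labels and the cause of its counts was not tested. Genotypes are given throughout as the libraries are labelled.

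The sort was checked with marker genes. *Pdgfra* was detected in every library, with between 1312 and 4531 counts, and was lower with bleo, with a log2 fold change of -1.74 in WT (adjusted p = 4.53e-14) and -0.80, under 2-fold, in libraries labelled Pear1-/- (adjusted p = 5.16e-09). *Ptprc*, which encodes the leukocyte antigen CD45, was detected in every library too, with between 2482 and 8252 counts. It rose with bleo in WT (log2 fold change 1.22, adjusted p = 2.21e-10), had a value of -0.18 in libraries labelled Pear1-/- (adjusted p = 0.0677) and was lower in Pear1-/- bleo than in WT bleo (-1.19, adjusted p = 9.33e-10). A list of 16 macrophage and monocyte markers summed to between 2257 and 2448 CPM in WT vehicle, between 2383 and 2478 CPM in Pear1-/- vehicle, between 13450 and 13624 CPM in WT bleo and between 6054 and 6218 CPM in Pear1-/- bleo. In bulk samples, fewer cells of a type and less RNA per cell cannot be told apart.

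A gene was called higher or lower if it passed 2 criteria, a fold change over 2 and an adjusted p below 0.05. The p came from the two-sided quasi-likelihood test of edgeR, adjusted by Benjamini-Hochberg over the 17418 genes, and SE is the standard error of a log2 fold change. In WT bleo against WT vehicle, 5 of the 9 genes were higher and 3 lower, beside 10.5% and 23.3% of all genes tested. In Pear1-/- bleo against Pear1-/- vehicle, 4 were higher and 4 lower, beside 8.37% and 19.3% of all genes. Between Pear1-/- bleo and WT bleo, 0 were higher and 4 lower, beside 6.22% and 8.80%. The median log2 fold change of the 9 genes in these comparisons was 1.62, 0.64 and -0.77, beside medians of -0.07, -0.05 and -0.01 over all genes tested. When WT vehicle replicate 2 was left out and 20405 genes were tested, the counts in the 3 comparisons stayed at 5 and 3, 4 and 4, and 0 and 4. The shares of all genes higher and lower were then 11.3% and 33.7%, 7.59% and 25.1%, and 6.54% and 9.41%. The comparisons share libraries, so they are not independent of each other.

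**Figure D1:**
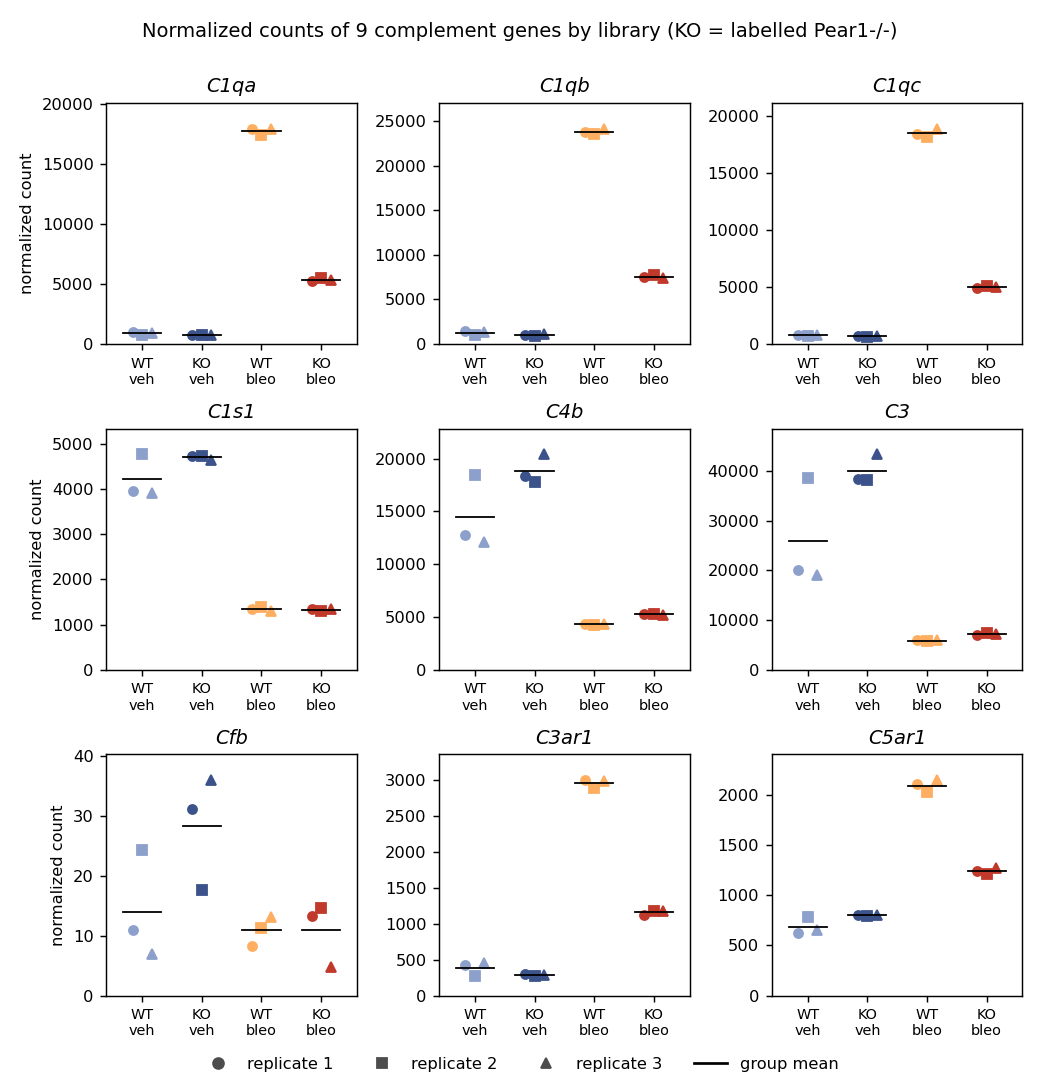
Normalized read count (vertical axis, linear, from 0) of each of the 9 genes in each of the 12 libraries, with 1 symbol per replicate and a line at the group mean, where KO stands for libraries labelled Pear1-/-. The 3 C1q genes, *C3ar1* and *C5ar1* were highest in WT bleo, whereas *C1s1*, *C4b* and *C3* were higher in all vehicle libraries than in all bleo libraries, and the square of WT vehicle replicate 2 lies with Pear1-/- vehicle for *C3*, *C4b* and *C1s1*.

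The 3 genes of C1q lie side by side on mouse chromosome 4 (GRCm38) on the minus strand. *C1qb* (ENSMUSG00000036905) spans chr4:136880129-136886187, *C1qc* (ENSMUSG00000036896) spans chr4:136889804-136893065 and *C1qa* (ENSMUSG00000036887) spans chr4:136895917-136898803, with 3616 and 2851 bases between neighbours and 3 exons in each. *C1s1* (ENSMUSG00000038521, chr6:124530345-124542359) and *C3* (ENSMUSG00000024164, chr17:57203970-57228136) also lie on the minus strand. The 250 bases before the RefSeq start site (GRCm38.p6) are shown for *C1qb* from the trio that rose, at chr4:136886201-136886450, and for *C3* at chr17:57228137-57228386 and *C1s1* at chr6:124542360-124542609 from the genes that fell. They are written 5′ to 3′ on the minus strand, with matches to the reported motifs in capitals.

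C1qb: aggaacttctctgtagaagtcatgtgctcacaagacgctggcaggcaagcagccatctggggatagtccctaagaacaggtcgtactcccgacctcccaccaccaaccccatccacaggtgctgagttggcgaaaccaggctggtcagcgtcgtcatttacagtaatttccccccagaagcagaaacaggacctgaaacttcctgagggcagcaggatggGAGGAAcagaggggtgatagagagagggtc
C3: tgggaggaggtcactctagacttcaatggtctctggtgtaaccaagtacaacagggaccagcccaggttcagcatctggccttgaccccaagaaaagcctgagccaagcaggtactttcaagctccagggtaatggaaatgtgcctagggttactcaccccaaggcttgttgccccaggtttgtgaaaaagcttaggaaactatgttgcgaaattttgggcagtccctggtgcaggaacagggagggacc
C1s1: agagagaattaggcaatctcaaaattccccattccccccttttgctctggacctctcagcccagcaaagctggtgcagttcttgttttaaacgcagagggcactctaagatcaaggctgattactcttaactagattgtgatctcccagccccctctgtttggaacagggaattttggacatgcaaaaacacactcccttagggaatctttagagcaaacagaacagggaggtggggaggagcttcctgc

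On both strands the matches of 3 motifs are reported, namely the PU box GAGGAA bound by the myeloid factor PU.1, the STAT site TTCNNNGAA and the TATA box TATAAA, and no window of the 6 matched genes held more than 1 match. The interferon response element and the NF-kB site were also searched and are not reported here. *C1qb* held a PU box that begins 30 bases before the start site, and *C1qc* held 1 on the opposite strand, 193 bases before its RefSeq start site. The PU box was present in 23.3% of the 32851 promoter windows of this length, so that a match is common. None of the 3 motifs was found in the windows of *C3*, *C1s1* and *C5ar1*, and *C3ar1* held a TATAAA 235 bases before its start site. The STAT site and the TATA box were present in 7.02% and 12.4% of all windows. A match describes the letters of the window and nothing about binding.

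*C1qa*, *C1qb* and *C1qc* were the genes that rose most with bleo among the 9, and they rose less in libraries labelled Pear1-/-. *C1qa* had 989.6, 730 and 932 normalized counts in WT vehicle replicates 1, 2 and 3, and 708, 738 and 737 in Pear1-/- vehicle. It had 17939.7, 17428 and 17919 in WT bleo, and 5232, 5468 and 5329 in Pear1-/- bleo. Each bleo library lay far above every vehicle library, and the WT bleo and Pear1-/- bleo libraries did not overlap, whereas WT vehicle replicate 2 lay among the Pear1-/- vehicle libraries. The rise was 20.3-fold in WT (log2 fold change 4.34, SE 0.095, adjusted p = 1.24e-17) and 7.36-fold in libraries labelled Pear1-/- (2.88, SE 0.089, adjusted p = 2.91e-15).

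Normalized counts of *C1qb* with vehicle were 1233 ± 228 (WT) and 1004 ± 83.3 (Pear1-/-), and with bleo they were 23842 ± 291 (WT) and 7569 ± 194 (Pear1-/-), each as mean ± SD of 3 libraries. Those of *C1qc* were 757 ± 70.1 (WT) and 663 ± 61.0 (Pear1-/-) with vehicle, then 18446 ± 385 (WT) and 4998 ± 57.9 (Pear1-/-) with bleo. For both genes the WT bleo libraries were highest, the Pear1-/- bleo libraries next, and the ranges of the bleo groups were apart from each other and from the vehicle groups. The log2 fold change with bleo was 4.28 for *C1qb* and 4.62 for *C1qc* in WT (adjusted p = 2.18e-15 and adjusted p = 2.16e-18), and 2.92 for both in libraries labelled Pear1-/- (adjusted p = 2.87e-13 and adjusted p = 5.87e-16).

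The direct comparison of Pear1-/- bleo with WT bleo gave log2 fold changes of -1.75 for *C1qa* (SE 0.085, adjusted p = 5.84e-12), -1.67 for *C1qb* (SE 0.101, adjusted p = 5.95e-10) and -1.90 for *C1qc* (SE 0.077, adjusted p = 6.80e-13). The interaction of genotype and bleo, which is the difference between the log2 changes in the 2 genotypes, was -1.46 for *C1qa*, -1.37 for *C1qb* and -1.70 for *C1qc* (adjusted p = 2.71e-08, adjusted p = 1.16e-06 and adjusted p = 1.19e-09). These were the 3 genes of the 9 that met both criteria for a lower interaction, beside 6.98% of all genes, and 0 met them for a higher one, beside 8.53%. Without WT vehicle replicate 2 the interactions of the 3 genes were -1.42, -1.31 and -1.71.

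The 3 genes kept a nearly constant proportion to each other. *C1qa* made up between 29.0% and 32.5% of their summed counts in the 12 libraries, *C1qb* between 39.6% and 44.2%, and *C1qc* between 25.2% and 30.9%. *C1qc* took 30.7% ± 0.20 (SD, n = 3) in WT bleo and 27.9% ± 0.38 in Pear1-/- bleo, with no overlap. Together the trio took 0.0343% ± 0.0074 (WT) and 0.0256% ± 0.0012 (Pear1-/-) of all counts with vehicle, and 0.675% ± 0.011 (WT) and 0.200% ± 0.0032 (Pear1-/-) with bleo.

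Macrophage markers moved with the C1q genes. Of the 16 macrophage and monocyte markers, 12 were higher and 1 lower in WT bleo (median log2 fold change 2.79), 10 were higher and 1 lower in Pear1-/- bleo against its vehicle (median 1.52), and 9 were lower in Pear1-/- bleo than in WT bleo (median -1.16). *Csf1r*, the receptor for the macrophage growth factor CSF1, rose by 3.08 on the log2 scale in WT and 1.74 in libraries labelled Pear1-/-. *Adgre1*, which encodes the macrophage surface protein F4/80, rose by 3.19 and 1.49. *Marco* and *Cd163*, which mark some resident macrophages, had at most 39 and 36 counts in any library.

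The log2 fold changes of the trio were larger than those of most of these markers. In WT bleo against WT vehicle, *C1qc* had a larger log2 fold change than all 16 markers, *C1qa* than 15 and *C1qb* than 14. Summed counts of the trio per count of *Csf1r* were 2.32 ± 0.31 (WT) and 2.02 ± 0.010 (Pear1-/-) with vehicle, and 5.78 ± 0.058 (WT) and 4.52 ± 0.085 (Pear1-/-) with bleo (SD, n = 3). The range of WT bleo, 5.72 to 5.84, lay above that of Pear1-/- bleo, 4.43 to 4.6. Per count of *Adgre1* they were 8.39 ± 0.81 and 6.94 ± 0.20 with vehicle, then 19.4 ± 0.66 and 18.5 ± 0.54 with bleo, and the bleo ranges, 18.9 to 20.2 and 17.9 to 18.9, touched at their ends. Per count of *Cd68*, a lysosomal protein of macrophages, they were 10.9 ± 0.27 in WT bleo and 7.6 ± 0.20 in Pear1-/- bleo. The size of the genotype difference in C1q per macrophage marker therefore depended on the marker, and the part of macrophage content in the C1q difference was not tested.

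**Figure D2:**
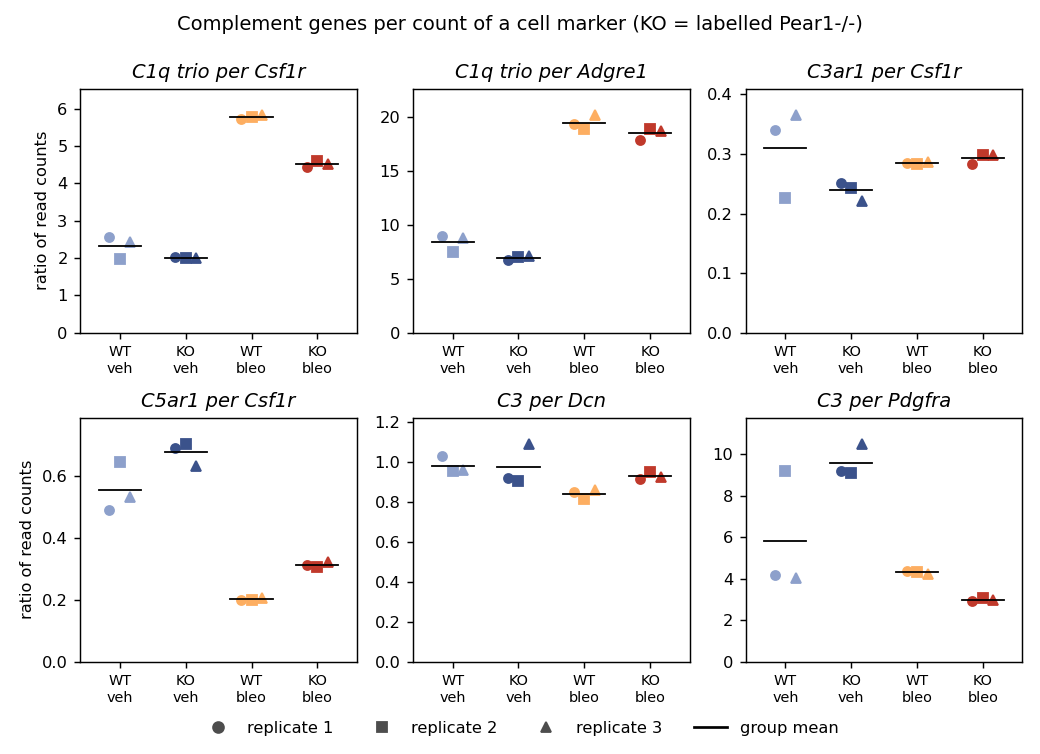
Ratio of read counts (vertical axis, linear, from 0) of complement genes to a marker gene in each library, with 1 symbol per replicate and a line at the group mean, where KO stands for libraries labelled Pear1-/-. C1q per *Csf1r* separated WT bleo (5.78) from Pear1-/- bleo (4.52), C1q per *Adgre1* nearly did not (19.4 and 18.5), and *C3* per *Dcn* stayed between 0.816 and 1.09 in all 12 libraries. *C3* per *Pdgfra* ranged more widely, from 2.93 to 10.5.

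*C1s1* and *C4b*, a protease gene and a substrate gene of the classical pathway, were lower with bleo in both genotypes. *C1s1*, which encodes the protease C1s, had 3961, 4770.1 and 3919.9 normalized counts in WT vehicle replicates 1, 2 and 3 and between 4647 and 4733 in Pear1-/- vehicle. It had between 1301 and 1398 in WT bleo and between 1302 and 1336 in Pear1-/- bleo. All vehicle libraries lay above all bleo libraries, and the bleo groups overlapped. *C1s1* fell with bleo, with a log2 fold change of -1.63 in WT (SE 0.075, adjusted p = 5.23e-13) and -1.82 in libraries labelled Pear1-/- (SE 0.075, adjusted p = 1.60e-13), with a difference of -0.04 between the bleo groups (SE 0.074, adjusted p = 0.701). An annotated antisense gene, *Gm16567*, covers 18.4% of the exonic bases of *C1s1*, and it is not among the genes of the deposited count table.

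*C4b* (ENSMUSG00000073418, chr17:34728380-34743882) encodes complement C4, which is cleaved by C1s. It had 12791, 18422 and 12109.9 normalized counts in WT vehicle replicates 1, 2 and 3, and 18311.5, 17813 and 20381 in Pear1-/- vehicle. It had between 4276 and 4312 in WT bleo and between 5216 and 5279 in Pear1-/- bleo. WT vehicle replicate 2 lay within the Pear1-/- vehicle range, and the bleo groups did not overlap each other. *C4b* fell with bleo, with a log2 fold change of -1.74 in WT (SE 0.119, adjusted p = 9.86e-09) and -1.84 in libraries labelled Pear1-/- (SE 0.120, adjusted p = 7.48e-09), and its value of 0.28 between Pear1-/- bleo and WT bleo did not pass the test (adjusted p = 0.0672). Without WT vehicle replicate 2 that value was 0.27 (SE 0.0473, adjusted p = 3.33e-06), under 2-fold. Its near-identical neighbour *C4a* took at most 0.330% of the summed counts of both genes in any library, and the way shared reads were assigned is not given in the sources used here.

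*C3* encodes the central component, on which all activation routes converge. It had 20012, 38526 and 18982 normalized counts in WT vehicle replicates 1, 2 and 3, and 38251, 38211 and 43274 in Pear1-/- vehicle. In bleo it had 5879, 5783 and 5885 in WT, and 7033, 7309 and 7128 in libraries labelled Pear1-/-. All vehicle libraries lay above all bleo libraries, and WT vehicle replicate 2 lay within the range of Pear1-/- vehicle. The group mean ± SD was 25840.3 ± 11000 in WT vehicle and 39912 ± 2910 in Pear1-/- vehicle (n = 3).

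With bleo *C3* fell, with a log2 fold change of -2.13 in WT (SE 0.246, adjusted p = 6.14e-05) and -2.48 in libraries labelled Pear1-/- (SE 0.249, adjusted p = 3.06e-05). Without WT vehicle replicate 2 the value in WT was -1.66 (SE 0.050, adjusted p = 6.53e-36). Between Pear1-/- bleo and WT bleo the value was 0.28 (SE 0.237, adjusted p = 0.376), and without that vehicle library it was 0.27 (SE 0.046, adjusted p = 1.69e-06), under 2-fold in both cases. The interaction was -0.35 (SE 0.334, adjusted p = 0.46) with all libraries and -0.83 (SE 0.069, adjusted p = 1.25e-15) without it.

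Fibroblast markers were divided. Of 13 fibroblast markers, 2 were higher and 7 lower in WT bleo (median log2 fold change -1.32), 4 were higher and 7 lower in Pear1-/- bleo against its vehicle (median -1.05), and 5 were higher and 1 lower in Pear1-/- bleo than in WT bleo (median 0.63). With WT vehicle replicate 2 left out, 2 were higher and 6 lower in WT bleo (median -0.87). Their summed level was between 18953 and 19795 CPM in WT vehicle, between 18684 and 19029 CPM in Pear1-/- vehicle, between 12950 and 13074 CPM in WT bleo and between 33302 and 34055 CPM in Pear1-/- bleo. In libraries labelled Pear1-/- the summed level was thus higher with bleo than with vehicle, where *C3*, *C4b* and *C1s1* were lower, and the 4 markers called higher there were *Col1a1*, *Col1a2*, *Cthrc1* and *Postn*. *C3* per count of *Dcn*, which encodes the matrix proteoglycan decorin, was 0.981 ± 0.042 (WT) and 0.971 ± 0.102 (Pear1-/-) with vehicle, and 0.841 ± 0.022 (WT) and 0.928 ± 0.018 (Pear1-/-) with bleo (SD, n = 3). Per count of *Pdgfra* it was 5.8 ± 2.93 and 9.59 ± 0.78 with vehicle, then 4.30 ± 0.072 and 2.99 ± 0.082 with bleo, so that the order of the bleo groups depended on the marker. The WT vehicle values per *Pdgfra* were 4.17, 9.18 and 4.04 in replicates 1, 2 and 3, so that replicates 1 and 3 lay below all WT bleo libraries (4.22 to 4.36) and replicate 2 above them. In bleo, *C1s1* per count of *Pdgfra* was 0.992 ± 0.056 (WT) and 0.554 ± 0.0038 (Pear1-/-), and *C4b* was 3.16 ± 0.058 and 2.19 ± 0.029. Per count of *Dcn*, *C4b* was 0.618 ± 0.013 in WT bleo and 0.681 ± 0.0052 in Pear1-/- bleo.

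The summed levels of epithelial and lymphocyte markers were also lower with bleo. The summed level of 10 epithelial markers was between 5186 and 6525 CPM in WT vehicle and between 1767 and 1795 CPM in WT bleo, and it went from between 6177 and 6982 CPM to between 766 and 779 CPM in libraries labelled Pear1-/-. For 11 lymphocyte markers it was between 10301 and 16473 CPM in WT vehicle and between 1719 and 1784 CPM in WT bleo, and between 15387 and 18982 CPM and then 8332 and 8650 CPM in libraries labelled Pear1-/-. Of the 10 epithelial markers, 0 were higher and 5 lower in WT bleo, and 1 was higher and 7 lower in Pear1-/- bleo, each against its vehicle. Of the 11 lymphocyte markers, 0 were higher and 3 lower, then 0 and 7. The summed level of 5 smooth muscle and pericyte markers rose in libraries labelled Pear1-/-, from between 167 and 182 CPM to between 408 and 428 CPM. In WT it was between 165 and 222 CPM with vehicle and between 148 and 150 CPM with bleo. The part of fibroblasts and of these other cells in the falls of *C3*, *C4b* and *C1s1* was not tested.

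*Cfb* (ENSMUSG00000090231, chr17:34856374-34862518), which encodes factor B, was close to the limit of detection. It had 9, 24 and 6 counts in WT vehicle, 33, 19 and 33 in Pear1-/- vehicle, 9, 11 and 13 in WT bleo, and 15, 17 and 5 in Pear1-/- bleo. WT vehicle replicate 2 was again the highest of its group, and the WT groups overlapped, whereas all Pear1-/- vehicle libraries lay above all Pear1-/- bleo libraries. *Cfb* fell in libraries labelled Pear1-/-, with a log2 fold change of -1.34 (SE 0.452, adjusted p = 0.015), and leaving out 1 library raised the adjusted p to 0.05 without Pear1-/- vehicle replicate 1, 0.0719 without Pear1-/- vehicle replicate 3 and 0.0779 without Pear1-/- bleo replicate 3. In WT its value was -0.38 (SE 0.50, adjusted p = 0.508), and it was 0.36 without WT vehicle replicate 2. The readthrough gene *Gm20547* shares 79.5% of the exonic bases of *Cfb* in the GENCODE M21 annotation. It is not among the genes of the deposited count table, and how reads in the shared exons were treated is not given.

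The receptor genes *C3ar1* (ENSMUSG00000040552, chr6:122847138-122856161) and *C5ar1* (ENSMUSG00000049130, chr7:16246743-16259540) rose with bleo in WT. *C3ar1* had 429, 275 and 449.9 normalized counts in WT vehicle replicates 1, 2 and 3 and 294, 274 and 280.5 in Pear1-/- vehicle, then between 2884 and 2999 in WT bleo and between 1129 and 1184 in Pear1-/- bleo. It rose 7.77-fold in WT (log2 fold change 2.96, SE 0.130, adjusted p = 6.70e-12) and 4.12-fold in libraries labelled Pear1-/- (2.04, SE 0.129, adjusted p = 1.08e-09). The bleo groups did not overlap, and *C3ar1* was lower in Pear1-/- bleo than in WT bleo (-1.36, SE 0.120, adjusted p = 1.25e-07).

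*C5ar1* had 621, 783 and 654 normalized counts in WT vehicle and between 793 and 809 in Pear1-/- vehicle, then between 2029 and 2151 in WT bleo and between 1211 and 1271 in Pear1-/- bleo. It rose 3.08-fold in WT (log2 fold change 1.62, SE 0.079, adjusted p = 1.19e-12). In libraries labelled Pear1-/- its change with bleo was 1.55-fold (log2 fold change 0.64, adjusted p = 9.40e-07), and in Pear1-/- bleo it was at 0.587 of its WT bleo level (log2 fold change -0.77, adjusted p = 1.12e-07), both under the 2-fold criterion. The interaction was -0.91 for *C3ar1* (adjusted p = 0.000759) and -0.99 for *C5ar1* (adjusted p = 1.13e-06), each just under 2-fold. By the adjusted p alone, at any fold change, 5 of the 9 genes had a lower interaction and 0 a higher one, beside 19.3% and 17.8% of all genes tested. Without WT vehicle replicate 2 the interactions of *C3ar1* and *C5ar1* were -0.80 and -1.18, and *C5ar1* then met both criteria, as did *Cfb* with an interaction of -1.71, so that 5 of the 9 genes met them for a lower interaction, beside 9.81% of all genes in that fit, and 0 for a higher one, beside 12.1%. In the same fit all 9 interactions were negative with an adjusted p under 0.05, beside 26% of all genes with a lower and 20.4% with a higher interaction by that rule.

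The receptors were also set against *Csf1r*. Counts of *C3ar1* per count of *Csf1r* were 0.311 ± 0.074 (WT) and 0.239 ± 0.015 (Pear1-/-) with vehicle, and 0.285 ± 0.0021 (WT) and 0.293 ± 0.0086 (Pear1-/-) with bleo (SD, n = 3), and the ranges of both bleo groups lay within that of WT vehicle. Those of *C5ar1* were 0.556 ± 0.079 and 0.676 ± 0.038 with vehicle, then 0.202 ± 0.0037 and 0.313 ± 0.0092 with bleo, and every bleo library lay below every vehicle library. Neutrophils also carry *C5ar1*, and a list of 8 neutrophil markers summed to 555, 556 and 1666 CPM in WT vehicle, the last in replicate 2, to between 1559 and 1919 CPM in Pear1-/- vehicle, and to at most 244 CPM in bleo libraries. The part of neutrophils in the *C5ar1* values was not tested.

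**Figure D3:**
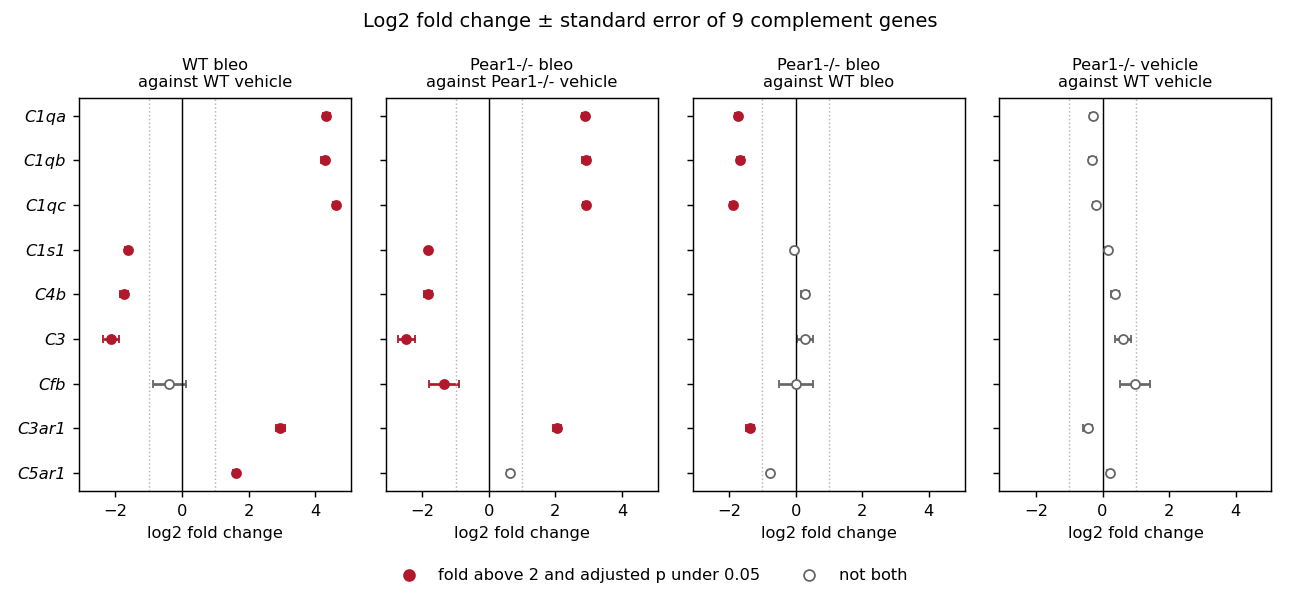
Log2 fold change (horizontal axis) with its SE for each of the 9 genes in 4 comparisons from edgeR, where filled points passed both criteria and dotted lines mark a 2-fold change. The C1q genes and *C3ar1* lie to the right of 0 in both bleo comparisons and to the left between Pear1-/- bleo and WT bleo, whereas *C1s1*, *C4b* and *C3* lie to the left of 0 with bleo and near 0 between the bleo groups.

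In the vehicle comparison of Pear1-/- with WT, 0 of the 9 genes met both criteria in edgeR's test, beside 0.0689% of all genes higher and 3.25% lower, and DESeq2 and limma called 0 as well. All 9 had an unadjusted p under 0.05, between 0.0035 for *C1qa* and 0.0496 for *C1s1*, beside 31.4% of all genes tested. *C1qa* reached an adjusted p of 0.0493 with a log2 fold change of -0.29, under 2-fold. The log2 fold changes lay between -0.45 for *C3ar1* (adjusted p = 0.0507) and 0.97 for *Cfb* (adjusted p = 0.15), with 0.62 for *C3* (adjusted p = 0.118) and 0.38 for *C4b* (adjusted p = 0.0581). The comparison turned on WT vehicle replicate 2. Without it *C3* was higher in Pear1-/- vehicle by 1.10 on the log2 scale (SE 0.052, adjusted p = 1.20e-25) and *Cfb* by 1.72 (SE 0.426, adjusted p = 0.000602), beside 2.86% of 20405 genes then higher, and 0 of the 9 genes were lower, beside 21.3%.

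Levels were compared between genes as RPKM, in which the count is scaled to the total of the library and to the exon length of the gene. In WT vehicle *C3* had the highest level, 582 ± 197 RPKM (SD, n = 3), followed by *C4b* at 297 ± 46.4, and the ranges of *C1s1* (159 ± 5.32), *C1qb* (135 ± 33.4) and *C1qa* (101 ± 22.3) overlapped from each gene to the next. In WT bleo the order was led by *C1qb* at 2462 ± 32.3 RPKM, *C1qa* at 1919 ± 32.3 and *C1qc* at 1073 ± 23.4, with *C3* at 128 ± 1.33, *C5ar1* at 91.7 ± 2.79, *C4b* at 84.8 ± 0.43, *C3ar1* at 77.2 ± 1.73 and *C1s1* at 48.4 ± 1.70, and no neighbours in this order overlapped. In Pear1-/- bleo *C1qb* (777 ± 18.8), *C1qa* (574 ± 10.4) and *C1qc* (289 ± 1.83) led again, and *C4b* (103 ± 0.85) lay above *C5ar1* (54.0 ± 1.33). *Cfb* was last in every group, with at most 1.34 RPKM in any library.

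The rest of the pathway was described from 4 further lists with 52 genes, of which 39 were tested. Of these, 21 had a mean log2 CPM of 3 or more, so many of the genes counted below were at low levels. In WT bleo against WT vehicle 8 were higher and 17 lower (median log2 fold change -0.66), in Pear1-/- bleo against its vehicle 7 were higher and 12 lower (median -0.27), and between the bleo groups 4 were higher and 6 lower (median 0.012). In the vehicle comparison 0 were higher and 3 lower. With WT vehicle replicate 2 left out, when 46 of these genes were tested, the counts in these 4 comparisons were 9 higher and 24 lower, 7 higher and 17 lower, 6 higher and 7 lower, and 1 higher and 13 lower. The medians of the first 3 were then -1.20, -0.35 and -0.01. In the vehicle comparison 2.86% of all genes were then higher and 21.3% lower. The percentages of all genes given above for each comparison and direction are the background of these counts.

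Among the 13 tested genes of initiation, 3 were higher and 8 lower in WT bleo. Of those called, only *Cfp*, *C1ra* and *Colec12* had a mean log2 CPM of 3 or more. *C1ra*, the protease partner of C1s, fell, with log2 fold changes of -1.59 in WT and -1.74 in libraries labelled Pear1-/- (adjusted p = 8.25e-12 and adjusted p = 3.51e-12), and counts of *C1s1* per count of *C1ra* were between 1.11 and 1.33 in all 12 libraries. *Cfp*, which encodes properdin, a stabiliser of the alternative pathway enzyme that myeloid cells make, rose in WT from 224 ± 21.1 with vehicle to 1952 ± 52.4 normalized counts with bleo (SD, n = 3), and in libraries labelled Pear1-/- from 233 ± 20.1 to 1463 ± 50.9. *Colec12*, which encodes a scavenger receptor of the collectin family, fell in WT (log2 fold change -1.22), and its interaction was 1.10 (adjusted p = 1.01e-07).

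In the terminal pathway *C7* and *Hc*, which encodes C5, fell in both genotypes. Normalized counts of *C7* in WT were 4749 ± 424 with vehicle and 885 ± 33.6 with bleo (SD, n = 3), and in libraries labelled Pear1-/- they were 4255 ± 160 and 1029 ± 9.35. *Hc* went from 257 ± 36.6 to 92.4 ± 4.46 in WT and from 230.5 ± 5.88 to 13.0 ± 4.14 in libraries labelled Pear1-/-, with an interaction of -2.68 (SE 0.240, adjusted p = 8.17e-08). *C6* rose in libraries labelled Pear1-/- by 1.23 on the log2 scale (adjusted p = 8.04e-09).

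Of 13 tested regulators, 0 were higher and 7 lower in WT bleo, and 0 were higher and 6 lower in Pear1-/- bleo against its vehicle. Most of those called were near the floor. Only *Serping1* in WT, and *Serping1* and *Cd55* in libraries labelled Pear1-/-, had a mean log2 CPM of 3 or more. *Cd59a*, *Cr1l*, *Clu* and *Csmd1*, also above that level, were not called in either. *Serping1*, the inhibitor of C1r and C1s, fell, with 21701 ± 2410 normalized counts in WT vehicle, 8317 ± 16.2 in WT bleo (SD, n = 3) and log2 fold changes of -1.37 in WT and -1.32 in libraries labelled Pear1-/-. *Cd55*, which encodes a membrane protein that dismantles the C3-cleaving enzymes, fell with bleo, with a log2 fold change of -1.92 in libraries labelled Pear1-/- (adjusted p = 4.36e-11) and of -0.60, under 2-fold, in WT (adjusted p = 7.47e-05), and its interaction was -1.32 (adjusted p = 2.45e-06).

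Of 9 other tested receptors, 5 were higher and 0 lower in WT bleo. *Itgax* and *Itgam* encode the alpha chains of complement receptors 4 and 3, and *Itgb2* their shared beta chain. *Itgax* rose by 2.88 on the log2 scale in WT and by 1.48 in libraries labelled Pear1-/-, with an interaction of -1.40 (SE 0.103, adjusted p = 7.88e-09). *Itgam*, listed under 2 identifiers of which the one with more counts was used, rose by 2.31 and 1.66, and *Itgb2* rose by 1.34 in WT and had a value of 0.24 in libraries labelled Pear1-/-. *Cr2*, the receptor of B cells for C3 fragments, rose by 1.08 in WT and was lower in Pear1-/- bleo than in WT bleo (log2 fold change -1.35, adjusted p = 1.30e-05).

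**Figure D4:**
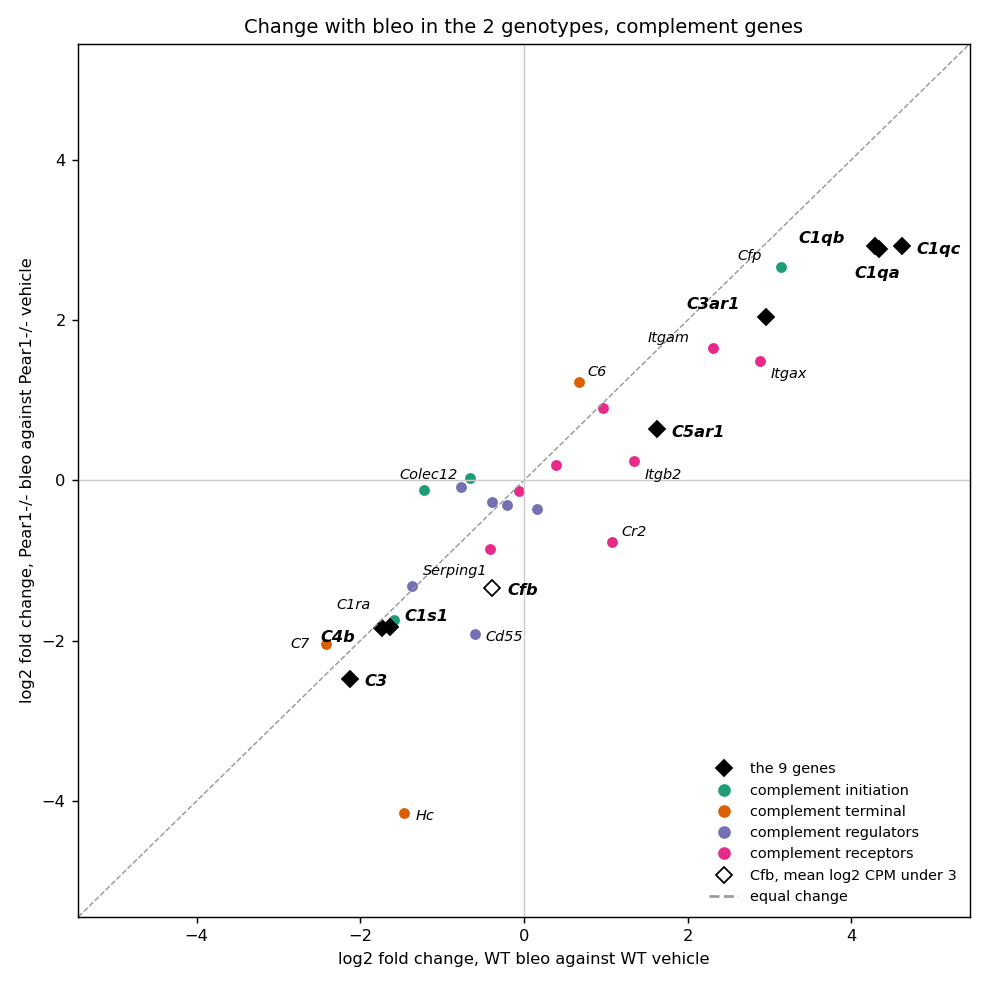
Log2 fold change with bleo in WT (horizontal axis) against that in libraries labelled Pear1-/- (vertical axis) for the 9 genes (diamonds) and the 21 genes of the 4 further lists whose mean log2 CPM was 3 or more (circles, by list), where the dashed line marks equal change. The C1q genes, at 4.28 to 4.62 in WT and 2.88 to 2.92 in libraries labelled Pear1-/-, lie below that line at the upper right with *C3ar1*, *Itgax* and *C5ar1*, and *C1s1*, *C4b* and *C3* lie near it at the lower left with *C1ra* and *C7*.

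The genes most like each member were found by Pearson's correlation of log2 CPM over the 12 libraries among the 10695 tested genes whose mean log2 CPM was 3 or more. The libraries fall into a few groups and share depth and composition, so these values are descriptive. *C1qa* and *C1qb* were most like *Pld4* (r = 0.9993 and 0.9995) and *Tbxas1*, and *C1qc* was most like *Stab1* and *Lair1* (r = 0.9989 for both). *C3ar1* was most like *P2ry6* and *Aif1* (r = 0.9978 and 0.9976), and *C5ar1* was most like *Pitpna* and *Cysltr1* (r = 0.9977 for both). *C3* was most like *Serpinf1* and *Entpd2* (r = 0.9989 and 0.9985), *C4b* most like *Htra3* and *Ngp* (r = 0.9986 and 0.9976), and *C1s1* most like *Hhip* and *4930523C07Rik* (r = 0.9983 and 0.9979). *Cfb* had lower values, 0.9322 with *6430548M08Rik* and 0.9207 with *Dhx16*.

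Among the 9 genes themselves 2 sets were seen. *C1qa*, *C1qb*, *C1qc*, *C3ar1* and *C5ar1* had correlations between 0.9439 and 0.9995 with each other, and *C1s1*, *C3* and *C4b* between 0.9751 and 0.9968, whereas correlations between the sets were all negative, from -0.9671 to -0.8369. *Cfb* is left aside here. *C3* and *C4b* had r = 0.9968, and counts of *C3* per count of *C4b* were 1.36 in both bleo groups (SD 0.0076 in WT and 0.023 in libraries labelled Pear1-/-, n = 3) and 2.12 ± 0.028 in Pear1-/- vehicle. In WT vehicle that ratio was between 1.56 and 2.09, with the high value in replicate 2.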

How the data were processed

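RNA of Cd140a+ cells sorted from mouse lung was made into full-length cDNA with the SMART-Seq v4 kit. Per the labels and the study's methods, reads were aligned to GRCm38 with HISAT2, and the authors deposited a table of read counts per gene without normalization. The program that counted reads and its use of strand are not given in the sources used here. The authors also deposited a normalized signal table, made by dividing counts by size factors as DESeq2 computes them (largest relative difference from such values 1.09e-10).

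Counts were tested with edgeR 4.0.16 in R 4.3.3 (filterByExpr, TMM, glmQLFit with robust estimation, glmQLFTest), with 1 mean per group over all 12 libraries. limma 3.58.1, on log2 of the normalized signal plus 1, and DESeq2 1.42.0 served as alternatives, and the scripts were tested on simulated data. The 9 genes, the gene lists and the tests were chosen with earlier results of these data known. Named beside the 9 are complement genes that met both criteria at a mean log2 CPM not under 3, at most 4 per list and direction, and the 2 genes most like each member. For RPKM, exon lengths came from GENCODE M21, which matched all 136 listed genes, and promoters of 6 of the 9 genes came from RefSeq. For a symbol listed more than once (38 repeats in the table), the entry with more counts over all libraries was taken. Libraries of a group are called replicates. From the list of regulators, 1 gene is not reported here.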

Additional observations from a re-analysis of the deposited data

Results flagged for a closer look

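The change with bleo differed between the libraries labelled WT and those labelled Pear1-/- for 5 of the 9 genes, by edgeR's test of the interaction with Benjamini-Hochberg adjustment. This count rests on the adjusted p alone, by which 19.3% of all genes tested had a lower interaction and 17.8% a higher one, and 3 of the 5 also passed 2-fold. Without WT vehicle replicate 2 all 9 genes had an adjusted p under 0.05, the highest being 0.0162 for *Cfb*, and all 9 interactions were negative, beside 26% of all genes in that fit with a lower and 20.4% with a higher interaction. The interaction, on the log2 scale, was -1.4604 for *C1qa* (adjusted p = 2.71e-08), -1.3658 for *C1qb* (adjusted p = 1.16e-06) and -1.6986 for *C1qc* (adjusted p = 1.19e-09). It was -0.9149 for *C3ar1* (adjusted p = 0.000759) and -0.9867 for *C5ar1* (adjusted p = 1.13e-06), which are changes under 2-fold. In all 3 bleo libraries labelled Pear1-/- each of these genes lay below all 3 WT bleo libraries. The macrophage markers *Adgre1* and *Csf1r* had interactions of -1.70 and -1.34 (adjusted p = 5.23e-10 and adjusted p = 1.88e-09), and their part in the differences was not tested.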

How the results depend on the processing

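Each value was recomputed with other normalization, filter, tool, spread estimate and library choices, the non-robust estimate having been added after the data were seen. Of the counts of genes meeting both criteria, 89 recomputed ones stayed within 1.5 times the reported count and 5 did not. For the interaction, 5 genes instead of 3 met both criteria without a filter on low counts, and 4 or 5 did when any 1 library was left out, where *C3ar1*, *C5ar1* or both were added, or *C5ar1* with *Cfb* without WT vehicle replicate 2. In the vehicle comparison between 0 and 2 did, with 2 (*C3* and *Cfb*) only without WT vehicle replicate 2. The value of *Cfb* changed sign, and the cause was not tested. In WT bleo against WT vehicle it lay between -0.71 and 0.36 when 1 library was left out, and between Pear1-/- bleo and WT bleo it lay between -0.27 and 0.35 then and was -0.10 with limma. The interaction of *C4b* lay between -0.40 and 0.0057 when 1 library was left out.

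With the replicate number as a block (replicate block), 8, 8, 4, 0 and 3 genes met both criteria in the 5 comparisons, as without it, and *Cfb* gave -0.014 between the bleo groups. Deviations of same-numbered libraries from their group means had correlations between -0.161 and 0.1, so the libraries share only a number. The interaction could not be fitted with 2 groups only. Depth limits *Cfb* most among the 9 genes, with at most 33 counts in a library.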
